A study of Mus musculus with 4 samples.

Results

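Germline genes and protocadherin beta genes are kept silent in most somatic cells by repressive marks on their promoters, and here their signals were followed in macrophages with and without Setdb1. The members are 42 genes chosen by name, 22 genes of germ cell development and 20 genes of the protocadherin beta cluster. Of these, 41 had at least 1 probe set with a single gene symbol, out of 18193 genes named in this way, and the brightest probe set of each gene was used. Rpl10l, a testis copy of a ribosomal protein gene, had no such probe set and was not analysed here.

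Thioglycollate-elicited peritoneal macrophages, which are mostly monocyte-derived cells that an irritant draws into the peritoneal cavity, came from C57BL6/J mice. The KO mice were LysM Cre/+:Setdb1 fl/fl and the WT mice +/+:Setdb1 fl/fl, so that both carried the floxed Setdb1 alleles and the WT mice lacked the Cre. LysM drives the Cre in myeloid cells, and cells of other lineages in the culture keep Setdb1. Cells of each genotype received vehicle or lipid A, the active part of LPS, for 4 h. The dose of lipid A is 10 ng/ml in the series design and 10 µg/ml in the sample labels. Each of the 4 conditions was measured on 1 Affymetrix array, so no difference has a replicate check and no test was made. Ages and the number of mice behind an array are not given in the sources used here.

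In the adult, germ cells express these genes for meiosis and for the piRNA pathway, in which small RNAs silence transposable elements. Somatic cells hold them off with DNA methylation at CpG-rich promoters, with H3K9 methylation and with a Polycomb complex that contains the factors E2F6, MGA and MAX. In mouse embryonic stem cells Setdb1, which methylates H3K9, is known to take part in this repression. Protocadherin beta proteins are cell adhesion molecules by which neurons tell their own branches from those of others, and their cluster is also held under repressive chromatin. Neither DNA methylation nor histone methylation was measured on these arrays, and "silenced" refers to this background alone.

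Promoters of 3 germline members are shown, chosen by signal and not by sequence: Sycp3 as the member that passed the array median in KO under both treatments and Ddx4 and Mael as the first members of the list that stayed below it on every array. Each is 300 bases 5′ to 3′ on the gene's strand, from 250 before the transcription start, as given by RefSeq on GRCm38.p6. Capitals mark letters that the Polycomb complex is known to bind, the E-box CACGTG of MGA and MAX and the core GCGGGA of the E2F6 site, on either strand. The Sycp3 window is chr10:88459337-88459636 (+), that of Ddx4 chr13:112652261-112652560 (-) and that of Mael chr1:166238695-166238994 (-).
Sycp3: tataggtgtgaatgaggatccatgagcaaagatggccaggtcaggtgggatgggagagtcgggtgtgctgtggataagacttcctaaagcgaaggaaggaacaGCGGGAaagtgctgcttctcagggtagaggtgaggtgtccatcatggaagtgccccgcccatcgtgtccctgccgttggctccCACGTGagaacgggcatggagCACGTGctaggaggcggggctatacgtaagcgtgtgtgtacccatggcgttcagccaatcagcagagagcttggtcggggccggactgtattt
Ddx4: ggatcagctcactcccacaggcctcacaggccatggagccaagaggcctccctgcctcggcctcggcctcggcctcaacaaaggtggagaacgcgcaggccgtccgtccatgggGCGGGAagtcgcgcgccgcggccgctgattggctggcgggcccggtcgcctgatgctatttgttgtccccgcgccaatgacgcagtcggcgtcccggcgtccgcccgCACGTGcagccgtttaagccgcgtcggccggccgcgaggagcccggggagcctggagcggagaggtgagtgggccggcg
Mael: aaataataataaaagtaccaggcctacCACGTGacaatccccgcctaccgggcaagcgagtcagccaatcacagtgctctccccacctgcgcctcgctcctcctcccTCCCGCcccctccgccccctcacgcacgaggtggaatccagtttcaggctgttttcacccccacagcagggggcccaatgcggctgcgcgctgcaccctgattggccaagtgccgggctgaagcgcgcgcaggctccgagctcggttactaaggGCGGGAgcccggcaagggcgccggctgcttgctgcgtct

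In Sycp3 the E-box occurred 2 times, 64 and 43 bases before the start, and GCGGGA 147 bases before it. In Ddx4 the E-box began 29 bases and GCGGGA 136 bases before the start, and in Mael the E-box began 223 bases before it, with GCGGGA 143 bases before it on the minus strand and 11 bases after it. Promoter windows were given for 20 of the 22 germline members and for none of the protocadherin beta members. CACGTG was present in 58.3% of the 24 windows of germline members (11 genes) and in 7.15% of all 32851 windows. GCGGGA was present in 41.7% of the germline windows (9 genes) and in 20% of all windows, and the pair of motifs in 29.2% and 1.99%. Several genes have more than 1 overlapping window, and a match of letters is no measured binding site.

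The CpG observed over expected ratio, which is low where methylated CpG has been lost over evolution, had a median of 0.74 in the windows of germline members and of 0.38 in all windows. It was above 0.6 in 79.2% of the germline windows, against 35.8% of all. The windows at or under 0.6 were those of Stra8, Zfp42, Dpep3 and Tex19.1 and 1 of the 3 windows of Tdrd1. Among the 12 germline members below the median on every array, Ddx4, Mael, Sycp1, Stk31, Slc25a31, Hormad1, Tdrd1 and Mov10l1 held the E-box. Zfp42, Tex101 and Smc1b did not, and Tex11 had no window. Of the members that reached the median on some array, Taf7l, Sycp3 and Brdt held it. Dazl, Asz1, Tex19.1, Stra8 and Dpep3 did not, and Piwil2 had no window. A link between the E-box and the signal was not tested.

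**Figure D1:**
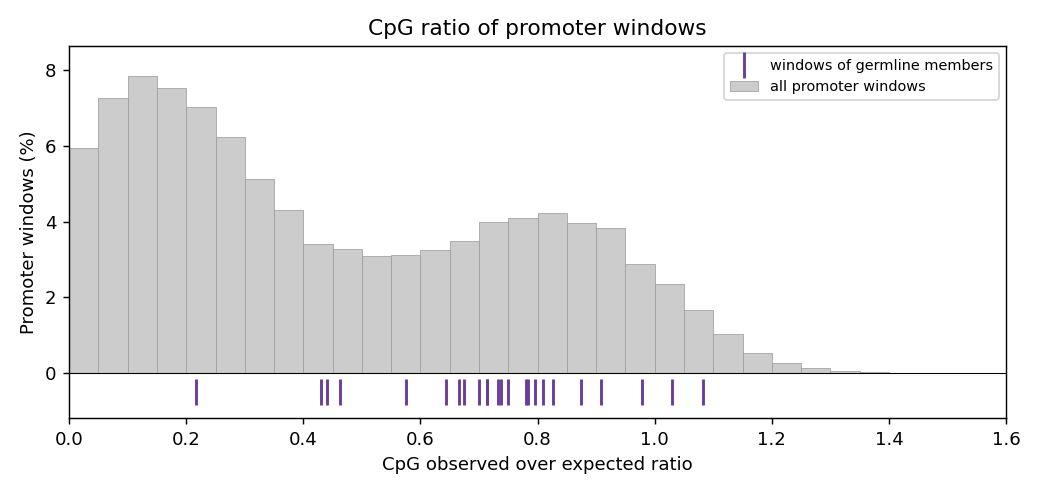
CpG observed over expected ratio of 300-base promoter windows, with the percentage of all 32851 windows as grey bars and each of the 24 windows of germline members as a purple tick below the axis. Most ticks lie in the CpG-rich part, with a median of 0.74 against 0.38 for all windows.

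Below, pairs of values are given as vehicle, then lipid A. Any signal under the median of its own array, taken without control probe sets, was treated as background. This median was 65.1 and 74.8 in WT and 84.2 and 75.8 in KO, so on the log2 scale the KO vehicle array lay 0.37 above the WT vehicle array at its median. The 9872 genes at or above the median on both of these arrays had a median log2 difference of 0.087, so 0.37 is not a shift of all signals. Of all genes, 60% to 60.7% reached the median on each array. Where both signals were below the median, the log2 difference between KO and WT varied between probe sets of the same gene with an SD of 2.11 under vehicle and 2.16 under lipid A, or 4.32-fold and 4.46-fold. Where both signals were above, the SD was 0.42 and 0.41. No fold is therefore given between signals that are both below the median, and a fold against such a signal is a lower bound, computed against the median of its array. Setdb1 itself gave 589 and 521 in WT and 346 and 386 in KO. The position of this probe set relative to the deleted part is not known here, so it does not check the labels.

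Neither gene group rose as a whole above background in KO macrophages. Of the 21 germline members measured, 4 and 4 reached the array median in WT and 6 and 4 in KO. Of the 20 protocadherin beta members, 0 and 5 reached it in WT and 0 and 1 in KO. Not any of the 41 reached it on all 4 arrays, which 49.7% of all genes did, and 12 germline and 14 protocadherin beta members stayed below it on every array, against 25.4% of all genes. The highest signal of a germline member was 184 (Stra8 in KO vehicle, percentile 53.2 of all genes) and that of a protocadherin beta member 95.7 (Pcdhb11 in WT lipid A, percentile 45.4). A signal below the median does not show that a transcript is absent, and no tissue known to express these genes was measured beside the macrophages.

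**Figure D2:**
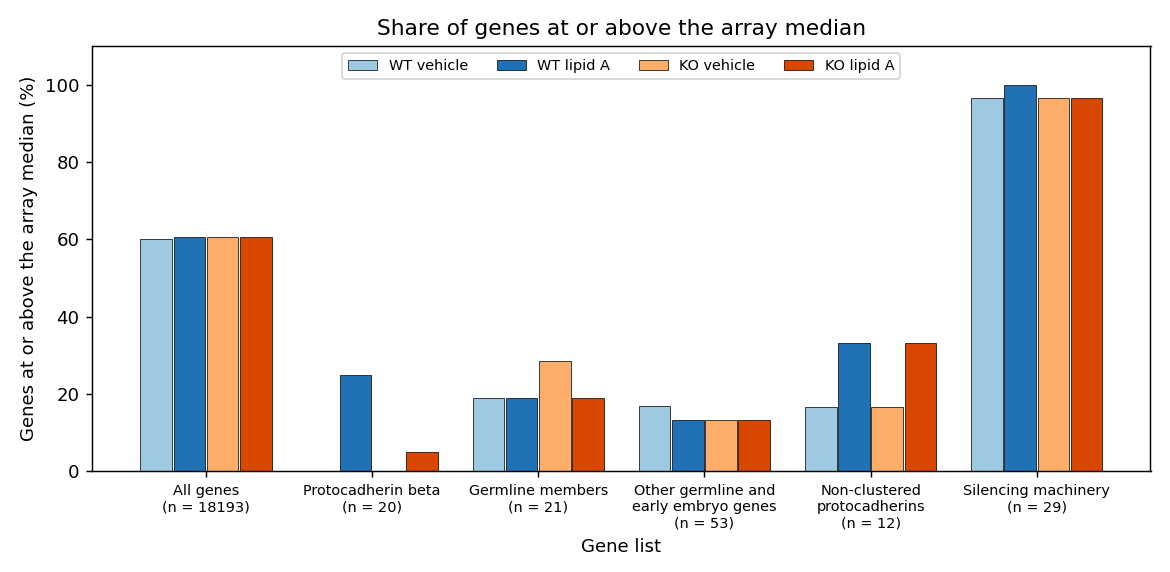
Percentage of the genes of each list at or above the median of the array, with 1 bar for each of the 4 arrays and the number of genes measured under each list. The germline members reach 19% to 28.6% and the protocadherin beta members 0% to 25%, against 60% to 60.7% of all genes.

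Under vehicle, 4 germline members went from below the median in WT to at or above it in KO, namely Dazl, Taf7l, Sycp3 and Piwil2, and 2 went the other way, Tex19.1 and Brdt. Among all genes, 6.45% went up in this sense and 5.72% down. Since most germline members started below the median, the closer comparison is with the genes below it in WT vehicle, of which 16.1% went up, against 23.5% (4 of 17) of the germline members. Under lipid A, 3 germline members went up (Sycp3, Tex19.1 and Dpep3) and 3 went down (Asz1, Stra8 and Piwil2), against 7.25% and 7.31% of all genes. Of the genes below the median in WT lipid A, 18.4% went up, against 17.6% (3 of 17) of the germline members. In the other direction 9.54% of genes that reached the median in WT fell below it in KO under vehicle and 12.1% under lipid A, against 2 and 3 of the 4 germline members that started there, none of which was above 1.86 times the median in WT. Both upward shares lay near those of all genes that started at background. With the highest of the 4 array medians as 1 level for all arrays, 6 germline members went up under vehicle and 3 under lipid A. With the 60th percentile of each array as the level, 3 and 1 did. The share of all genes was not computed at these levels.

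With signals below the median raised to it, 0 germline and 0 protocadherin beta members were over 3-fold higher or lower in KO under either treatment, against 0.797% of all genes higher and 0.412% lower under vehicle and 0.868% and 0.445% under lipid A. Over 2-fold, 3 members (Dazl, Sycp3 and Stra8) were higher under vehicle, where 3.45% of all genes were, and 0 under lipid A, where 2.9% were. By the same bounds 0 members were over 2-fold lower in KO, against 1.36% of all genes under vehicle and 2.65% under lipid A. With each array divided by its own median, Stra8 was the only member of these 3 over 2-fold. This division takes out the shift of 0.37 between the medians, which is larger than the 0.087 of genes at or above the median on both arrays. The WT vehicle signal of Stra8 was 1.01 times the median of that array. These counts rest on lower bounds wherever a signal was below the median, so a larger difference in such a member could not be measured.

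Sycp3, which encodes a protein of the chromosome axis in meiosis, was the only member that passed the median in KO under both treatments, as did 1.45% of all genes and 4.36% of the genes below it in both WT arrays. Its signal was 38.2 and 58.2 in WT and 141 and 99.2 in KO. Both KO signals were above both WT signals, and they were 1.67 and 1.31 times the median of their arrays. The difference was at least 2.16-fold under vehicle and at least 1.33-fold under lipid A. With the 60th percentile as the background level, which was 128 and 115 in KO, Sycp3 reached it in KO under vehicle but not under lipid A, and with the highest of the 4 medians as 1 level for all arrays Taf7l joined it.

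The other genes of meiotic chromosomes stayed at background. Sycp1, which joins the paired chromosomes in the synaptonemal complex, gave 14.1 and 55.1 in WT and 26.8 and 74.1 in KO, the last of these just below its array's median. Hormad1, a monitor of chromosome synapsis, gave 4.49 and 7.39 in WT and 2.72 and 66.3 in KO. Smc1b, a meiotic cohesin subunit, lay between 9.88 and 20.9 and was lower on both KO arrays, and Tex11, a factor of meiotic recombination on the X chromosome, lay between 6.74 and 55.4.

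Among regulators of germ cell development, Stra8, the retinoic acid-induced gene that starts meiosis, gave 65.7 and 125 in WT and 184 and 19.8 in KO, so that it was 2.80-fold higher in KO under vehicle (2.17-fold after division by the array medians) and at least 1.65-fold lower under lipid A. The 2 KO arrays thus held both its highest and its lowest signal. Its WT vehicle signal was 1.01 times the median of that array, at the edge of background, so the size of the vehicle difference is uncertain. Taf7l, an X-linked paralog of a general transcription factor subunit, gave 55.2 and 77.5 in WT and 89.5 and 120 in KO, and both KO signals exceeded both WT signals. Its difference was at least 1.38-fold under vehicle and 1.55-fold under lipid A. After division by the array medians these values were 1.06 and 1.53.

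Dazl, an RNA-binding protein that licenses germ cells for gametogenesis, gave 50.6 and 8.82 in WT and 141 and 40.4 in KO. It reached the median in KO vehicle alone, and its further probe set lay between 2.42 and 3.79 on the 4 arrays. Brdt, a testis bromodomain protein, reached the median in WT vehicle alone, with 121 there, 42.5 in WT with lipid A, and 56.3 and 63.4 in KO. A further probe set of Brdt gave 106 and 91.7 in WT and 65.6 and 14.9 in KO, in the order vehicle and lipid A, and it was the only 1 of the 11 further probe sets of members that reached the median on any array. Zfp42, the pluripotency marker Rex1, lay between 1.43 and 10.6.

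**Figure D3:**
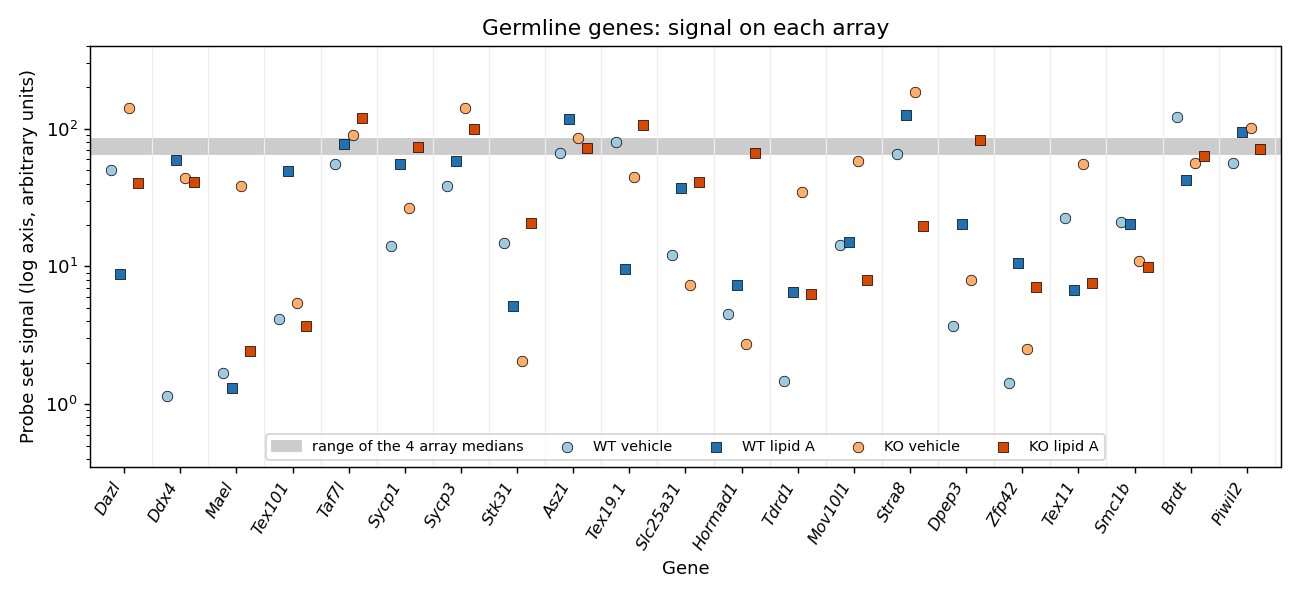
Signals of the 21 germline members drawn as 1 point per array along a log scale (circles for vehicle, squares for lipid A, blue for WT, orange for KO). The grey band spans the array medians from 65.1 to 84.2, and Sycp3 is the member with both KO points above it and both WT points below it.

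Of the members with a role in the piRNA pathway, Ddx4, Mael, Tdrd1 and Mov10l1 were below the median on every array. Ddx4, the germ cell RNA helicase Vasa, gave 1.14 and 59.2 in WT and 43.6 and 41.1 in KO. Mael, needed for silencing of transposable elements in testis, gave 1.68 and 1.31 in WT and 38.4 and 2.45 in KO. Tdrd1, a Tudor protein that binds PIWI proteins, lay between 1.47 and 34.8, and Mov10l1, an RNA helicase that makes piRNA precursors, between 7.94 and 58.3. In Mael, Tdrd1 and Mov10l1 the highest signal was that of KO vehicle, while the KO lipid A signals were 2.45, 6.32 and 7.94. The highest signal of Ddx4 was that of WT lipid A.

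Piwil2, a PIWI protein itself, gave 56.9 and 94.0 in WT and 101 and 71.9 in KO, and so passed the median upwards under vehicle and downwards under lipid A. Asz1, a protein of the mitochondria-linked germ granules, gave 66.6 and 117 in WT and 86.2 and 72.0 in KO from its brightest probe set. The further probe set of Asz1 gave 5.97 and 5.69 in WT and 59.9 and 35.6 in KO, all below the medians. Tex19.1, which restrains transposable elements in germ cells and placenta, gave 80.6 and 9.57 in WT and 44.7 and 106 in KO, with WT above KO under vehicle and KO above WT under lipid A. The bounded folds of these 3 genes between KO and WT were at most 1.56 in either direction.

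The remaining germline members encode proteins of sperm and spermatocytes. Dpep3, a testis dipeptidase, gave 3.68 and 20.4 in WT and 7.94 and 83.6 in KO, and its last signal was 1.1 times the array median. Tex101, a sperm surface protein, lay between 3.70 and 49.6, Slc25a31, the ADP/ATP carrier of sperm, between 7.36 and 41.1, and Stk31, a kinase-like protein of germ cells, between 2.05 and 20.8. Over the 12 germline members below the median on every array, signals ranged from 1.14 to 74.1.

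The protocadherin beta genes stayed at background in KO. Under vehicle all 20 were below the median in both genotypes, with signals up to 59.5 in WT and up to 74.4 in KO. Under lipid A, Pcdhb18 alone passed the median in KO, with 4.89 and 2.15 in WT and 54.6 and 76.1 in KO. Its KO signals both exceeded its WT signals, but the last was within 1.02 of the WT median, so no size is carried by it. This was 6.67% (1 of 15) of the members below the median in WT lipid A, against 18.4% of all genes that started there.

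In the other direction, 5 protocadherin beta members (25% of 20) were at or above the median in WT lipid A and below it in KO lipid A, against 7.31% of all genes. They were Pcdhb7 with 90.6 in WT lipid A, Pcdhb11 with 95.7, Pcdhb13 with 80.5, Pcdhb19 with 87.3 and Pcdhb22 with 83.1. These signals were between 1.08 and 1.28 times the median of that array. In KO lipid A the same genes gave 38.6, 4.13, 14.4, 2.23 and 3.30. Under vehicle they gave 32.4, 51, 59.5, 2.61 and 56.1 in WT and 2.81, 38.3, 4.44, 43.7 and 28.8 in KO. Their WT lipid A signals were at least 1.06-fold to at least 1.26-fold higher than those in KO lipid A, bounds that leave the true size unknown. All 5 were below the median on the other 3 arrays.

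**Figure D4:**
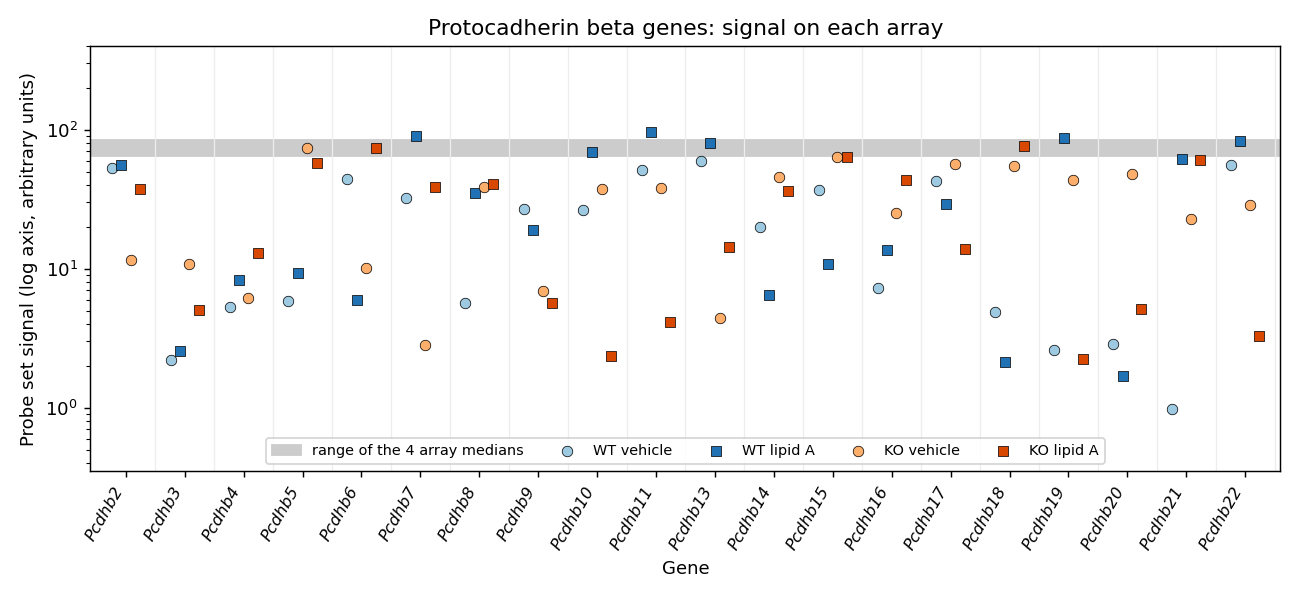
Signals of the 20 protocadherin beta members drawn as 1 point per array along a log scale (circles for vehicle, squares for lipid A, blue for WT, orange for KO). The points above the grey band of array medians, from 65.1 to 84.2, are WT lipid A signals of Pcdhb7, Pcdhb11 and Pcdhb19.

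Among the 14 protocadherin beta members below the median on every array, signals ranged from 0.975 to 74.4. Pcdhb5 gave 5.87 and 9.24 in WT and 74.4 and 57.9 in KO, all at background. It was picked after its values were seen. Pcdhb14, Pcdhb15, Pcdhb16, Pcdhb4 and Pcdhb21 had further probe sets, all of them below the median on every array. The 3 probe sets of Pcdhb16 gave 25.3, 52.7 and 72.9 in KO under vehicle and 43.4, 6.13 and 5.39 with lipid A. Protocadherin beta genes resemble each other in sequence, and whether their probe sets share targets was not tested.

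With signals below the median raised to it, the median log2 difference under vehicle was 0.37 over the 21 germline members, 0.37 over the 20 protocadherin beta members and 0.37 over all genes, which is the shift between the array medians. As measured, 15 of 21 germline and 13 of 20 protocadherin beta signals were higher in KO under vehicle, where 58.4% of all genes were. Under lipid A 12 and 10 were, against 49.8%. Most of these signs compare a pair of signals that were both at background.

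**Figure D5:**
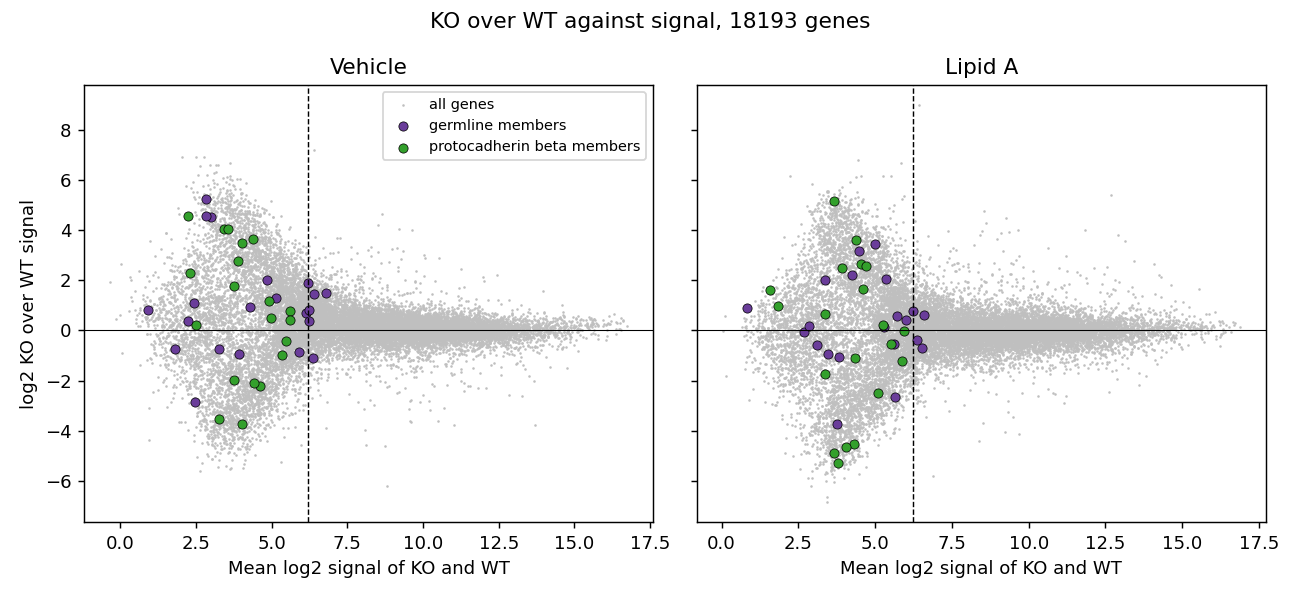
Log2 KO over WT signal against the mean log2 signal of KO and WT for 18193 genes (grey), germline members (purple) and protocadherin beta members (green), under vehicle and under lipid A. Most members lie left of the dashed line, the mean of the log2 medians of the 2 arrays, where differences of all genes spread most.

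With lipid A, 5 protocadherin beta members passed the median in WT and 1 in KO, and germline members passed it in both directions. With signals below the median raised to it, lipid A raised 0 germline and 0 protocadherin beta members over 2-fold in WT, against 3.8% of all genes, and 0 in KO, against 3.82%. Stra8 was the only member over 2-fold lower, at least 2.43-fold in KO, where 6.61% of all genes were lower, and in WT 0 members were, against 2.52% of all genes. In WT the 5 protocadherin beta genes named above passed the median upwards with lipid A, by at least 1.24-fold to at least 1.47-fold. Of all genes 6.76% did so, and of the genes below it in WT vehicle 16.9%, against 25% of the protocadherin beta members. In WT, lipid A brought 2 germline members above the median (11.8% of those that started below it) and 2 below it, where 6.2% of all genes went below. In KO it brought 2 above and 4 below, against 6.92% and 7.15% of all genes, and 1 protocadherin beta member above. Of the genes below it in KO vehicle 17.6% passed it upwards, against 13.3% of the germline and 5% of the protocadherin beta members. The WT lipid A array enters both this comparison and the comparisons with KO, so these counts are not separate evidence.

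Other germline and early embryo genes also lay mostly at background. Of 62 such genes, 53 were measured, and 9 and 7 reached the median in WT and 7 and 7 in KO. Under vehicle 3 passed it upwards in KO and 5 downwards, against 6.45% and 5.72% of all genes. The upward 3 were 6.82% of those below it in WT vehicle, against 16.1% of all genes that started there. Under lipid A 5 passed it upwards and 5 downwards, against 7.25% and 7.31%. The upward 5 were 10.9% of those below it in WT lipid A, against 18.4% of all genes that started there. Under both treatments 0 passed it upwards, against 1.45% of all genes and 4.36% of the genes below it in both WT arrays. Syce2, a synaptonemal complex gene named after its values were seen, was at 421 to 562 on all arrays, and it was 1.06-fold lower in KO under vehicle.

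Most genes listed for chromatin control of these promoters, Ctcf and Rad21 among them, were above background in both genotypes. Of the 29 measured, 28 or 29 reached the median on each array, with median signals between 694 and 940. Not any was over 3-fold different between KO and WT under either treatment. Dnmt3l, a cofactor of DNA methylation in germ cells, was above the median in WT with 105 and 130 and below it in KO with 74.3 and 24.2, as 1.08% of all genes were under both treatments. The values of this list were picked after they were seen. Atf7ip, the partner that stabilises Setdb1, gave 1086 and 559 in WT and 2205 and 1233 in KO, or 2.03-fold and 2.21-fold higher in KO. Dnmt3a, which sets new DNA methylation, gave 13896 and 6573 in WT and 10005 and 2342 in KO, and Dnmt1, which maintains it, gave 2146 and 980 in WT and 2861 and 690 in KO. E2f6 lay between 557 and 917, Mga between 438 and 696 and Max between 1428 and 2219.

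Markers of other cells moved with the genotype beside these small differences. Of 12 measured B cell markers, 6 and 5 reached the median in WT vehicle and WT lipid A and 9 on each KO array, with summed signals of 12154 and 13913 in WT and 13543 and 16781 in KO. Without Blnk, which held most of each sum, they were 2569 and 2532 in WT and 5929 and 5606 in KO. Of 10 T and NK cell markers, 1 and 4 reached it in WT and 5 and 8 in KO, with summed signals of 31675 and 28783 in WT and 36870 and 24168 in KO. Without Il7r, which held nearly all of each sum, they were 259 and 485 in WT and 909 and 903 in KO. Cd79a and Pou2af1 of B cells, Cd3d and Cd3g of T cells, Selp of resident peritoneal macrophages, Msln of mesothelium and Kit of mast cells passed the median in KO under both treatments, as Sycp3 did. Upk3b, Krt19 and Wt1 of mesothelium and Cpa3, Cma1, Mcpt4, Tpsb2 and Fcer1a of mast cells stayed below it on every array. So did Timd4, Alox15 and Garnl3 of resident peritoneal macrophages and Ncr1 of NK cells. Fcer2a of B cells fell below the median in KO under vehicle, and Vpreb3 of B cells and Cd5 of T cells under lipid A. Fcer2a and Cd5 passed it upwards under the other treatment. Cd22 of B cells was 1.2-fold and 1.86-fold lower in KO, while Ms4a1 was 16.7-fold and 22.5-fold higher. Lum and Pdgfra of fibroblasts and Camp of neutrophils fell below the median in KO under both treatments, and Dcn of fibroblasts was 4.02-fold and 2.87-fold lower. Going the other way, Postn passed the median upwards in KO under vehicle, and Krt8 and Krt18 did under lipid A. Col1a1 was 1.33-fold higher in KO under vehicle and 1.64-fold lower under lipid A. Pou2af1 gave 32.8 and 24 in WT and 232 and 287 in KO, and Cd3d 60.9 and 35.4 in WT and 287 and 151 in KO. The neutrophil gene Mmp8 was 9.01-fold lower in KO under vehicle and 10.8-fold lower under lipid A. Among other neutrophil genes, Ltf passed the median upwards in KO under vehicle, and Ngp and Stfa2l1 did under lipid A. Summed signals of 8 neutrophil markers were 5510 and 4349 in WT and 1236 and 1195 in KO, of 13 mesothelium and fibroblast markers 1962 and 1735 against 1089 and 1092, and of 10 mast cell and eosinophil markers 457 and 210 against 612 and 467. Those of 11 resident peritoneal macrophage markers were 37710 and 45523 in WT and 45691 and 69919 in KO, and those of 9 genes of dividing cells 13591 and 15846 against 22139 and 26349. Without Cd9 the former were 1967 and 8923 against 4412 and 24914, and without Pcna the latter were 785 and 1551 against 1231 and 3660. Under lipid A most of these remaining sums came from Serpinb2 (8164 in WT, 21260 in KO) and Mki67 (815 in WT, 2960 in KO). Serpinb2 was 3.27-fold lower in KO under vehicle, and Ccna2 was 2.11-fold lower under lipid A. Of the resident markers 6 and 5 were over 3-fold higher in KO and 1 and 0 lower. Higher by this threshold were 4 and 3 B cell markers, 2 and 0 T and NK cell markers and 0 and 1 dividing cell genes. Lower were 2 and 1 neutrophil markers and 1 and 0 mesothelium and fibroblast markers. Of all genes, 0.797% and 0.868% were higher and 0.412% and 0.445% lower. No marker was at 0, but no probe set used was at 0 on any array, so this does not show that a cell type was present. All 9 measured macrophage markers were above the median on every array, with summed signals of 188918 and 209638 in WT and 162066 and 182675 in KO. Of these 9, 4 were higher in KO under vehicle and 2 under lipid A. Adgre1 was 2.73-fold and 1.39-fold lower in KO, and Cd14 was 1.03-fold and 1.97-fold higher. In all these lists, fewer cells of a type cannot be told apart from less RNA per cell. The part of these other cells in the signals of Sycp3 and Taf7l was not tested.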

How the data were processed

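The study measured gene expression in peritoneal macrophages on 4 Affymetrix mouse genome arrays, and the authors deposited 1 table of probe set signals. Its unit is linear intensity, as deposited, and the software is not stated in the labels or methods. All 4 arrays have the same mean of 500.0 once the outer 2% on either side is removed, so whole arrays had probably been scaled. Detection calls were not used here.

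Of 45101 probe sets, 64 controls were left out, and 34945 of the rest have 1 gene symbol in the platform annotation, 932 several and 9160 none. For each of the 18193 genes the probe set brightest on average over the arrays (log2 scale) was kept. Signals were compared with the median of their array and, on the log2 scale, between genotypes and treatments, with thresholds of 3-fold and 2-fold. No p-value was computed, and the number of arrays limits the precision. Members with a signal at or above the median on any array are named with their 4 signals, and the others by ranges, with single values of some that were picked after they were seen. The members, the 12 further lists of 231 genes (177 measured) and the rule were chosen with earlier results of these data known. The calling step was tested on simulated data with less noise than the spread between probe sets below the median. That test therefore does not show how often a signal at background passes the median without a change. Promoter windows are those of RefSeq. Alternatives were other background levels, quantile normalization, other choices of probe set and other fold thresholds. Python 3.11.15, numpy 2.4.6, pandas 2.3.3, SciPy 1.17.1 and matplotlib 3.10.9 were used.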

Additional observations from a re-analysis of the deposited data

Results flagged for a closer look

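In 3 germline members the KO over WT difference had opposite signs under the treatments, with signals below the median raised to it, and the difference between the treatments was not tested. It was -2.21 on the log2 scale (lipid A minus vehicle) for Stra8, which was 2.80-fold higher in KO under vehicle and at least 1.65-fold lower under lipid A. It was -1.0 for Asz1, whose log2 differences were 0.37 under vehicle and -0.63 under lipid A, and whose difference under vehicle was 0.0 after division by the array medians. It was -0.95 for Piwil2, with 0.64 and -0.31. Each of these genes was below the median on at least 1 array, and each condition has 1 array. The WT vehicle signals of Stra8 and Asz1 were 1.01 and 1.02 times the median of that array.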

How the results depend on the processing

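The 21 counts and medians were recomputed in 162 combinations, of which 138 kept the value within 1.5 times or within the spread between probe sets. Many of these could hardly move, so their number does not measure robustness. Many were counts of 0 that stayed 0. Of the members, 0 were on a probe set with several symbols and 9 had more than 1 probe set. For medians the spread allowed was 0.42 under vehicle and 0.41 under lipid A, which is wide. With the 60th percentile of each array as background level, 1 germline member passed it in KO under lipid A, 0 under both treatments and 0 protocadherin beta members under lipid A, and 0 germline members fell over 2-fold with lipid A in KO. Median log2 differences over members at or above the level on their higher array, a filter that admits a member through the group where it is high, were 0.77 (germline, vehicle), 0.63 (germline, lipid A) and -3.51 (protocadherin beta, lipid A), and nothing rests on them. The vehicle value was 0.40 with centred arrays, 0.38 after quantile normalization and 1.48 with the 60th percentile, which gave -0.70 under lipid A, a reversal. With the highest array median as 1 level, 6 germline members passed it in KO under vehicle, against 4 as reported, and 2 under both treatments. At that level 0 protocadherin beta members passed it under lipid A, and the lipid A medians were 0.12 (germline) and -4.53 (protocadherin beta). The lipid A medians were 0.18 and 0.10 with no filter, and 0.16 and -0.17 with raised signals. Over 2-fold, 3 germline members were higher in KO under vehicle, and 1 with each array divided by its median, a setting chosen after seeing the data. By ratios as measured, over 3-fold higher in KO were 1 germline member under vehicle, and 2 germline members and 1 protocadherin beta member under lipid A. By the same ratios, lipid A lowered 2 germline members in WT, raised 2 and lowered 2 in KO, and raised 2 protocadherin beta members in WT, over 2-fold. Over 3-fold, 0 germline members were lower with lipid A in KO. The cause of these moves was not tested, except that a higher level leaves fewer genes above it. Leaving out an array ends its comparison, so this was not run. No paired analysis was possible because each condition has 1 array. Signals below the array median limit what can be said of most members.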

Other observations

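Protocadherins outside the beta cluster were partly above background. Of 12 non-clustered protocadherins, 2 reached the median on each vehicle array and 4 on each lipid A array. Pcdh7 gave 97.5 and 87.1 in WT and 155 and 215 in KO (vehicle, then lipid A), or 1.59-fold higher in KO under vehicle and 2.47-fold higher under lipid A, from its brightest probe set. Pcdh9 gave 92.7 and 133 in WT and 130 and 116 in KO. Both genes were named after their values were seen. Of 36 alpha and gamma cluster genes, Pcdhgc4 alone had a probe set with a single symbol, and it lay between 2.44 and 17.1.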
